A study of Mus musculus with 18 samples.

Results

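The genes described here are 9 regulators of mitochondrial and fatty acid metabolism in skeletal muscle. They are the coactivators Ppargc1a (PGC-1α) and Ppargc1b (PGC-1β), the oestrogen-related receptors (ERR) Esrra, Esrrb and Esrrg, the peroxisome proliferator-activated receptors (PPAR) Ppara and Ppard, and the factors Tfam and Nrf1. They were taken by symbol from 29456 mouse genes with a count, and all 9 were in the set of 16096 tested after low counts were filtered out. RNA came from the tibialis anterior (TA), a fast muscle of the lower leg, of mice with 5 tumour models that cause cachexia, taken at tumour endpoint, and of their controls. There were 18 libraries in 9 groups, with 2 libraries labelled as biological replicates in each. LLC mice (C57BL/6) had LLC lung carcinoma cells injected into muscle and controls had PBS. C26 mice (CD2F1) had C26 colon carcinoma cells injected under the skin and controls had PBS. KPC mice (C57BL/6) received 50000 KPC cells orthotopically and KPCML1 mice (C57BL/6) 1000 KPCML1 cells. Mice given Matrigel alone (2 libraries) served as controls for both. In the KPP experiment (C57BL/6) a genetic tumour was induced with tamoxifen, and controls were mice of the KPP model without tumour. The sources used here do not give the alleles, the organ injected or the ages.

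PGC-1α and PGC-1β do not bind DNA themselves. They are recruited by nuclear receptors and other factors, chiefly ERRα, ERRγ, PPARα, PPARδ and nuclear respiratory factor 1 (the product of Nrf1), and raise transcription of genes of the respiratory chain, the citric acid cycle and fatty acid oxidation. Nuclear respiratory factor 1 acts on genes for respiratory subunits and for Tfam, which packages mitochondrial DNA and starts its transcription. In muscle, PGC-1α is induced by endurance exercise, cold and fasting through cyclic AMP, calcium and AMP kinase signals, and its gene has a promoter upstream of the main one that responds to cyclic AMP.

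The libraries held 22546541 to 36673780 fragments, and replicate libraries correlated at r = 0.959 to 0.983 in log2 CPM across genes, which are not independent replicates. No source says that replicates came from separate animals beyond the label of biological replicate. CPM, the unit of the levels below, are counts scaled to a common library size that was corrected by the trimmed mean of M-values (TMM). The 10 mature fast myofibre markers were abundant in every library, with summed levels of 73010 to 182774 CPM. The lowest was C26 tumour replicate 2, against 136776 CPM in its replicate and 126658 and 137995 CPM in its controls, and 3 of the 10 markers were called lower in C26. Of 8 endothelial markers 7 were lower in KPP (286 to 291 CPM in controls, 119 to 169 CPM in tumour muscles), and of 8 macrophage markers 4 were higher in KPCML1 (40.8 to 68.4 and 130 to 145 CPM). Mitochondrially encoded transcripts were 5.94 to 22.4% of the fragments and lay lower in each tumour library than in its controls. The 7 erythroid markers summed to 294 to 890 CPM in the controls, 865 to 6833 CPM in the LLC, KPCML1 and KPC tumour muscles, 146 and 288 CPM in the C26 tumour muscles and 3206 and 462 CPM in the KPP tumour muscles. The 8 markers of fibro-adipogenic progenitors and tendon summed to 325 to 926 CPM in controls and 117 to 447 CPM in tumour muscles. The 8 slow and oxidative myofibre markers summed to 198 and 949 CPM in Matrigel replicates 1 and 2. They had 563 and 570 CPM in KPCML1 muscle and 691 and 558 CPM in KPC muscle. In LLC they had 558 and 865 CPM in controls and 225 and 397 CPM in tumour muscles. In C26 and KPP the groups overlapped. Of these markers 0 were called lower in any comparison. Called higher were 1 in LLC, 0 in KPCML1, 3 in KPC, 1 in C26 and 1 in KPP. Over all genes 7.39, 4.16, 15.3, 11.5 and 17.4% were called higher in these comparisons. Matrigel replicate 1 also had less Esrra, Esrrb and Esrrg than replicate 2. The part of these shifts in the results below was not tested, and in bulk muscle fewer cells of a type and less RNA per cell cannot be told apart. For Ppargc1a 1 library stood apart, KPP tumour replicate 2. Ppargc1a in KPP and the other members whose KPP direction it changes are therefore given with and without it, as are some KPP list counts.

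Ppargc1a lies on the minus strand of chromosome 5 (mm10, chr5:51454250-51567726) and has 5 annotated transcripts. Ppargc1a-201, Ppargc1a-203 and Ppargc1a-205 start in the main start region, and Ppargc1a-202 and Ppargc1a-204 start 13782 bases upstream of it. The first exons encode different N-termini, and the coding parts of exon 1 are shown, in the direction of transcription with the start codon in capitals, because they tell the start regions apart.
Ppargc1a-203, main start, chr5:51553735-51553782: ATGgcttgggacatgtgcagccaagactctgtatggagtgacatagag
Ppargc1a-204, upstream start, chr5:51567630-51567665: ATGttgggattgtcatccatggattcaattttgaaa
Exons 2 and 3 are common to all 5 transcripts. A further difference lies at exon 7. In Ppargc1a-203, the long form with an open reading frame of 797 codons, exon 6 is joined to an exon 7 of 74 bases. In Ppargc1a-201 and Ppargc1a-204, both annotated as targets of nonsense-mediated decay, exon 7 begins 31 bases earlier and the frame stops there after 270 codons (266 from the upstream start). The join is shown with exon 7 of Ppargc1a-203 in capitals, and the stop codon of Ppargc1a-201 in capitals.
Ppargc1a-203, last 20 bases of exon 6 and start of exon 7: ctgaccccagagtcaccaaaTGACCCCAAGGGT
Ppargc1a-201, last 20 bases of exon 6 and start of exon 7: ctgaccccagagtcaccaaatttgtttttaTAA
The promoter that RefSeq lists for Ppargc1a is that of the upstream start. The 250 bases before it (GRCm38.p6, chr5:51567726-51567975, minus strand) are shown because 1 library used this start more than the others, with the reverse complement of TGACG, a short motif within the cyclic AMP response element, in capitals 49 bases before the start.
Ppargc1a upstream promoter: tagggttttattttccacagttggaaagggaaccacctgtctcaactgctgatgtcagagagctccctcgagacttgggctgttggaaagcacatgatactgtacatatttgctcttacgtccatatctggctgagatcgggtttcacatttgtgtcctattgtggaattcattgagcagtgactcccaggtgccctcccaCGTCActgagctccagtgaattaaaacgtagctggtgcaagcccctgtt
Of 32817 RefSeq promoters of 300 bases (250 before the start and 50 after), searched on both strands, 20.8% hold TGACG, 1.79% the full element TGACGTCA, which contains TGACG, 1.28% the ERR element TNAAGGTCA and 3.69% a MEF2 site. In the 300-base promoter of Ppargc1a, TGACG had 1 match and the other 3 motifs had none. Promoters of the members were listed for all but Ppargc1b, 13 windows in all, and 0 of the 13 held the ERR element or the full cyclic AMP response element.

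Per length, as TPM in the 8 control libraries, Esrra was the most abundant member, with a lowest, median and highest level of 70.6, 89.1 and 101 TPM. Tfam followed at 27.7, 29.5 and 39.7 TPM and Ppard at 4.58, 10.7 and 12.98 TPM, and the ranges of these 3 genes did not overlap. The other 6 had control medians of 6.71 TPM for Ppargc1a, 4.12 for Nrf1, 3.66 for Esrrg, 3.40 for Ppara, 2.13 for Ppargc1b and 1.15 for Esrrb. From Ppard down, the range of each gene overlapped that of the next. In estimated counts the members ranged from 35 in the lowest library, for Ppargc1b, to 7797 in the highest, for Ppargc1a, so the precision differs among them. Beside Ppargc1a (above), the genes lie in mm10 with Ppargc1b at chr18:61298136-61400431, Esrra at chr19:6910977-6921813 and Tfam at chr10:71225464-71238280 on the minus strand, and Esrrb at chr12:86361117-86521628, Esrrg at chr1:187608791-188214885, Ppara at chr15:85734983-85802819, Ppard at chr17:28232700-28301474 and Nrf1 at chr6:30047988-30153458 on the plus strand.

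Each tumour group was compared with its own controls in 1 model of all 9 groups (edgeR's quasi-likelihood test), and a gene was called at an adjusted p under 0.05 over all genes tested. In the LLC comparison 2 of the 9 members were called, 1 higher and 1 lower, where 13.6% of all genes were called. In KPCML1 muscle 2 were called (1 higher, 1 lower) against 8.54% of all genes, in KPC muscle 5 (2 higher, 3 lower) against 29.1%, in C26 muscle 6 (2 higher, 4 lower) against 21.3%, and in KPP muscle 5 (2 higher, 3 lower) against 36.7%. The 2 tumour libraries lay on the same side of both controls for 9, 8, 7, 8 and 5 members in the LLC, KPCML1, KPC, C26 and KPP comparisons, where this held for 63.6, 60.0, 65.4, 65.8 and 64.1% of all genes. Of these, 7, 6, 4, 6 and 4 members were lower, against 31.9, 29.2, 34.0, 31.5 and 33.9% of all genes, and 2, 2, 3, 2 and 1 were higher, against 31.7, 30.8, 31.4, 34.3 and 30.2%. Lower Esrra (5 calls), Esrrg (3) and Ppargc1b (2) and higher Nrf1 (4) and Ppard (3) made up most of the calls, beside the plot of levels by library.

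**Figure D1:**
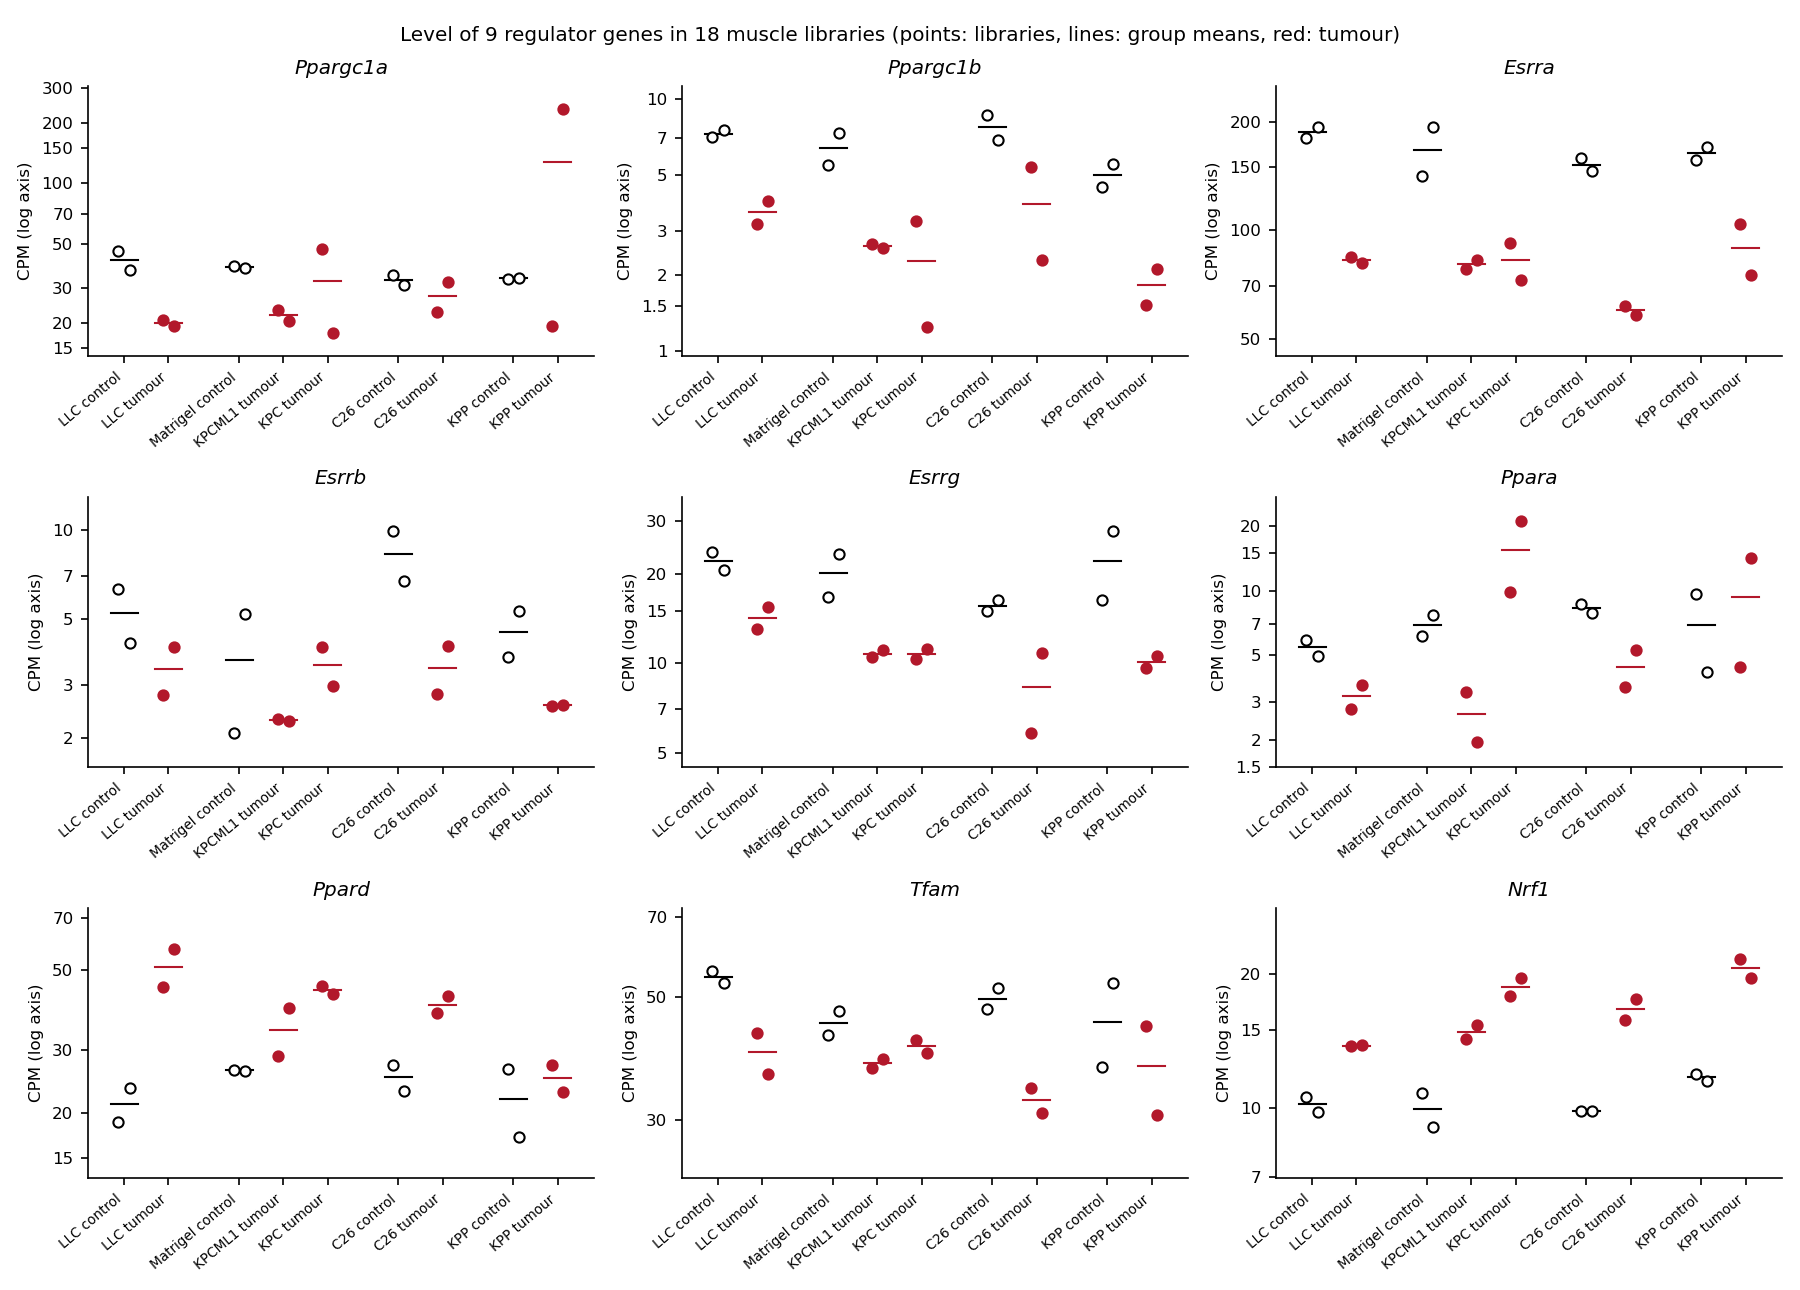
Level of each of the 9 genes in CPM (logarithmic axis) in the 18 libraries. Points are libraries, lines are group means of 2 libraries, open black points are controls and filled red points are tumour muscles. Esrra lies lower and Nrf1 higher in all 10 tumour libraries than in all 8 controls, and Ppargc1a reaches 236 CPM in 1 KPP tumour library.

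Ppargc1a, the best known inducer of mitochondrial biogenesis in muscle, had 45.9 and 37.1 CPM in the LLC controls and 20.7 and 19.5 CPM in the LLC tumour muscles. The Matrigel controls had 38.9 and 38.0 CPM, the KPCML1 muscles 23.3 and 20.6 CPM and the KPC muscles 47.1 and 17.9 CPM. In the C26 experiment the controls had 35.0 and 31.2 CPM and the tumour muscles 22.8 and 32.2 CPM. The groups were apart in LLC and KPCML1 muscle, where the tumour libraries were lower, and overlapped in KPC and C26 muscle. The KPP controls had 33.3 and 33.9 CPM, and the KPP tumour muscles had 19.4 CPM in replicate 1 and 236 CPM in replicate 2. Replicate 1 was thus below both controls and replicate 2 was above every other library of the study, where the highest of the other 17 was 47.1 CPM. Outside KPP no comparison was called: the log2 fold change was -1.05 ± 0.70 (SE, adjusted p = 0.364) in LLC, -0.81 ± 0.70 (0.521) in KPCML1, -0.24 ± 0.69 (0.826) in KPC and -0.27 ± 0.69 (0.829) in C26. In this model the spread of a gene is shared by all 9 groups, so KPP tumour replicate 2 enters these standard errors. These comparisons were refitted without that library only with each experiment alone. The adjusted p was then 0.269 in KPCML1 and 0.655 in KPC, and that in LLC is given below. For C26 the authors' deposited table, made with DESeq2, has a log2 fold change of -0.43 ± 0.27 (adjusted p = 0.295). In KPP the fitted change was 1.93 ± 0.71 (adjusted p = 0.0461), with groups that overlapped. Without KPP tumour replicate 2 it was -0.72 (adjusted p = 0.191), and without either control it was no longer called (1.92, adjusted p = 0.175, without replicate 1 and 1.94, adjusted p = 0.134, without replicate 2). With the replicate number as a block the KPP change was 1.03 (adjusted p = 0.316), and with the KPP libraries fitted alone 1.96 (0.141), so that the call was lost in both. Over all alternatives the KPP adjusted p ran from 6.79e-16 (no filter on low counts) to the 0.316 of the replicate block. The fit with no filter gave this value although the 2 KPP tumour libraries had 19.4 and 236 CPM. The reason was not tested. Calls and low adjusted p of the fit with no filter, here and for the genes below, are therefore not taken as support for a change. In LLC, 2 alternatives called Ppargc1a lower, the LLC libraries fitted alone (-1.06, adjusted p = 0.00166) and no filter (-1.01, 0.000212), and the others had adjusted p up to 0.65. The authors' deposited LLC table, with a log2 fold change of -0.95 ± 0.20 and an adjusted p of 3.65e-05, also has it lower.

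The start regions of Ppargc1a are given in the plot of counts by start. In KPP tumour replicate 2, 702.5 of 7797.2 estimated counts, 9.01%, were assigned to the upstream start. The 95% Wilson interval of 8.40 to 9.67% holds counting error only and takes every count as showing its start, so it is too narrow. In the other 17 libraries the share was 0 to 3.91%. It was 0 in 11 of them. If every count showed its start, a 0 would allow shares of up to 0.25 to 0.638% by the gene's total count in a library. The start regions differ in exon 1 only, which has 75 and 97 bases in the upstream transcripts. Few fragments can therefore show the start, and the shares that a 0 allows are larger and were not estimated. Both start regions were high in KPP tumour replicate 2: the main start region had 215 CPM, against at most 45.3 CPM in any other library, and the upstream start had 21.3 CPM, against at most 1.83 CPM. Ppargc1a-203, with the long frame, held 79.4% of the gene there and 68.7 to 100% over all libraries. Transcripts with the short frame held 16.7% there and 0 to 27.2% in the other 17, with a median of 8.56%. In the 4 experiments the mean difference in the upstream share, tumour minus control, was 1.38 percentage points (exact two-sided permutation test within experiments over 3240 relabellings, p = 0.33), and it was 0.258 points without KPP tumour replicate 2 and 2.51 points without KPP tumour replicate 1. Ppargc1a-202, a model of 488 bases that ends in exon 4, received 307 of the upstream counts in KPP tumour replicate 2, and on the TPM scale, which divides by length, the upstream share there was 50.9%. On that scale it was 26.2% in KPP control replicate 1, 22.6% in KPC tumour replicate 1, 11.5% in Matrigel replicate 2 and at most 9.61% in the others. In the test of transcript usage (edgeR's diffSpliceDGE) 0 of 4 Ppargc1a transcripts were called in each of the 5 comparisons and 0 had an unadjusted p under 0.05. The lowest p was 0.097, in KPP, and 0.0681, 0.0472, 0.136, 0.12 and 0.28% of all 38176 transcripts were called in the LLC, KPCML1, KPC, C26 and KPP comparisons.

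**Figure D2:**
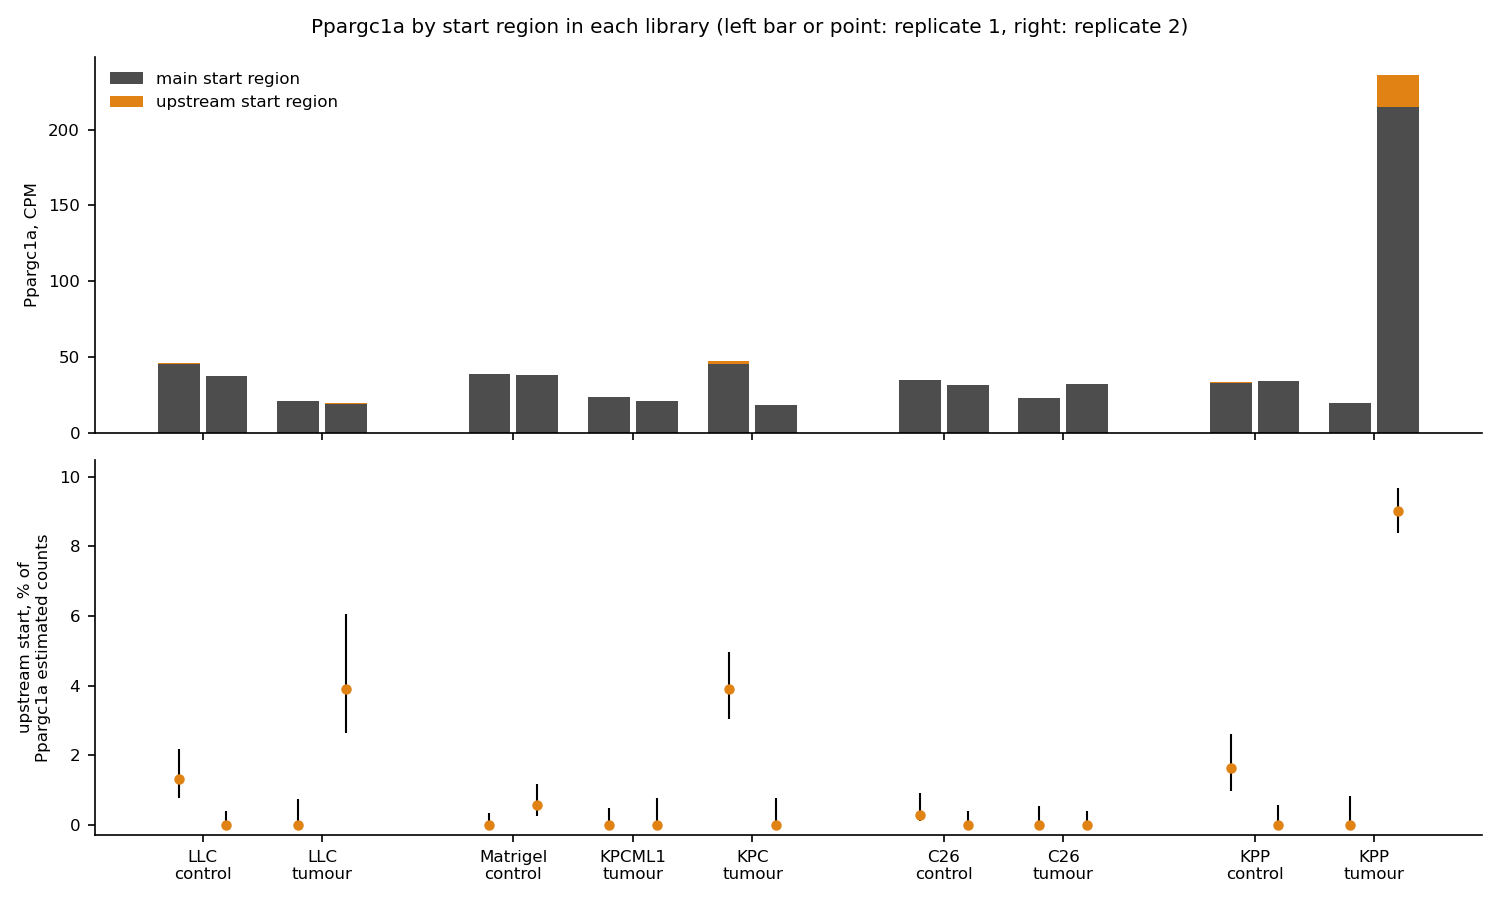
Ppargc1a in each library by start region. Bars in the upper panel give CPM of the main (grey) and upstream (orange) start region from 0. Points in the lower panel give the upstream share in percent of the estimated counts. Their 95% Wilson intervals take every count as showing its start and are too narrow. KPP tumour replicate 2 has 9.01% and the next highest library 3.91%.

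Ppargc1b, the paralogue that also coactivates ERRs, was lower in both tumour libraries than in both controls in all 5 comparisons and passed the test in 2. The Matrigel controls had 5.48 and 7.37 CPM and the KPC muscles 3.29 and 1.24 CPM, a 2.81-fold fall (log2 -1.49 ± 0.42, adjusted p = 0.0169). The KPP controls had 4.49 and 5.54 CPM and the KPP tumour muscles 1.53 and 2.12 CPM, a 2.73-fold fall (-1.45 ± 0.43, adjusted p = 0.0174). The fitted log2 changes of the other 3 comparisons were of like size but not called: -1.03 ± 0.41 in LLC (adjusted p = 0.115), -1.29 ± 0.42 in KPCML1 (0.0692) and -1.02 ± 0.41 in C26 (0.0906). The LLC controls had 7.09 and 7.51 CPM against 3.18 and 3.94 CPM, and the KPCML1 muscles had 2.66 and 2.57 CPM. The C26 controls had 8.69 and 6.88 CPM against 5.37 and 2.30 CPM. The KPC call was lost without Matrigel replicate 2 (-1.31, adjusted p = 0.0962) and without KPC tumour replicate 2 (-1.02, 0.118), and the KPP call without KPP control replicate 2 (-1.27, 0.0723) and without KPP tumour replicate 1 (-1.24, 0.101). Both calls were also lost with length-scaled counts (adjusted p = 0.0538 and 0.102). Over all alternatives the adjusted p was 0.000203 to 0.118 in KPC and 0.00052 to 0.102 in KPP. DESeq2 called the changes in KPCML1 and C26 (adjusted p = 0.0227 and 0.0493). With no filter on low counts, a fit with the limit given for Ppargc1a, the LLC, KPCML1 and C26 changes were called too (0.0329, 0.00304 and 0.0146).

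Esrra, which encodes ERRα, the main partner of PGC-1 on genes of oxidative phosphorylation, fell in all 5 models. The LLC controls had 181 and 193 CPM and the LLC tumour muscles 84.5 and 81.2 CPM, a 2.26-fold fall (log2 -1.17 ± 0.19, adjusted p = 0.00167). Against Matrigel controls of 141 and 193 CPM, the KPCML1 muscles had 77.8 and 82.8 CPM (2.08-fold lower, -1.06 ± 0.19, adjusted p = 0.00578) and the KPC muscles 92.3 and 72.9 CPM (2.02-fold lower, -1.02 ± 0.19, adjusted p = 0.00204). Every one of these tumour libraries was below every control. The C26 controls had 158 and 146 CPM and the tumour muscles 61.6 and 58.3 CPM, a 2.54-fold fall (-1.34 ± 0.19, adjusted p = 0.00054). The KPP controls had 157 and 170 CPM and the tumour muscles 104 and 74.9 CPM, a 1.83-fold fall (-0.87 ± 0.19, adjusted p = 0.00315). All 10 tumour libraries, at 58.3 to 104 CPM, lay below all 8 controls, at 141 to 193 CPM, which 4.3% of all genes tested did, and 1.55% of all genes were called lower in all 5 comparisons. Only the KPCML1 call was lost when a library was left out, without Matrigel replicate 2 (-0.83, adjusted p = 0.0882) and without KPCML1 tumour replicate 2 (-1.06, 0.0705), in a range of 6.83e-06 to 0.0882 over all alternatives. The KPP call was kept in 11 of 11 alternatives, with log2 changes from -1.12 to -0.59. On the TPM scale the ranges were also apart, with 39.0 to 57.7 TPM in tumour muscles against 70.6 to 101 TPM in controls.

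Esrrg, which encodes ERRγ, a constitutively active receptor enriched in oxidative muscle, was lower in both tumour libraries than in both controls in all 5 comparisons and fell past the threshold in 3. The KPP controls had 16.3 and 27.9 CPM and the tumour muscles 9.66 and 10.6 CPM (log2 -1.12 ± 0.28, adjusted p = 0.00751). The C26 controls had 15.0 and 16.3 CPM and the tumour muscles 5.84 and 10.8 CPM (-0.91 ± 0.28, adjusted p = 0.0354). The Matrigel controls had 16.7 and 23.4 CPM and the KPC muscles 10.4 and 11.2 CPM (-0.90 ± 0.28, adjusted p = 0.0288). Among the members Esrra and Esrrg were the only ones called lower in at least 3 comparisons, which held for 6.41% of all genes. The KPCML1 muscles, at 10.49 and 11.1 CPM, had the same fitted change as the KPC muscles (-0.90 ± 0.28) with an adjusted p of 0.0643 (0.024 with DESeq2). In LLC, with controls at 23.6 and 20.6 CPM and tumour muscles at 13.01 and 15.5 CPM, the change was -0.64 ± 0.28 (0.156). The KPP call was lost without KPP control replicate 2 (-0.67, adjusted p = 0.111). The KPC call was lost without Matrigel replicate 2 (-0.67, 0.199), without KPC tumour replicate 1 (-0.78, 0.125) or without KPC tumour replicate 2 (-1.01, 0.0806). The C26 call was lost without C26 control replicate 1 (-0.997, 0.0938), without C26 control replicate 2 (-0.87, 0.148) or without C26 tumour replicate 1 (-0.56, 0.202). The lowest adjusted p over all alternatives was 0.000246 in KPP, 0.00451 in KPC and 0.00275 in C26.

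Esrrb, the least abundant member, was called in 1 comparison, C26, with 9.95 and 6.72 CPM in the controls and 2.79 and 4.07 CPM in the tumour muscles (log2 -1.28 ± 0.39, adjusted p = 0.0325). This call was lost without any 1 of the 4 C26 libraries, with adjusted p from 0.0531 to 0.204 and log2 changes from -1.58 to -0.998. In the other 3 experiments the controls had 2.07 to 6.33 CPM and the tumour muscles 2.28 to 4.05 CPM. The groups were apart in LLC and KPP and overlapped in KPCML1 and KPC muscle.

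**Figure D3:**
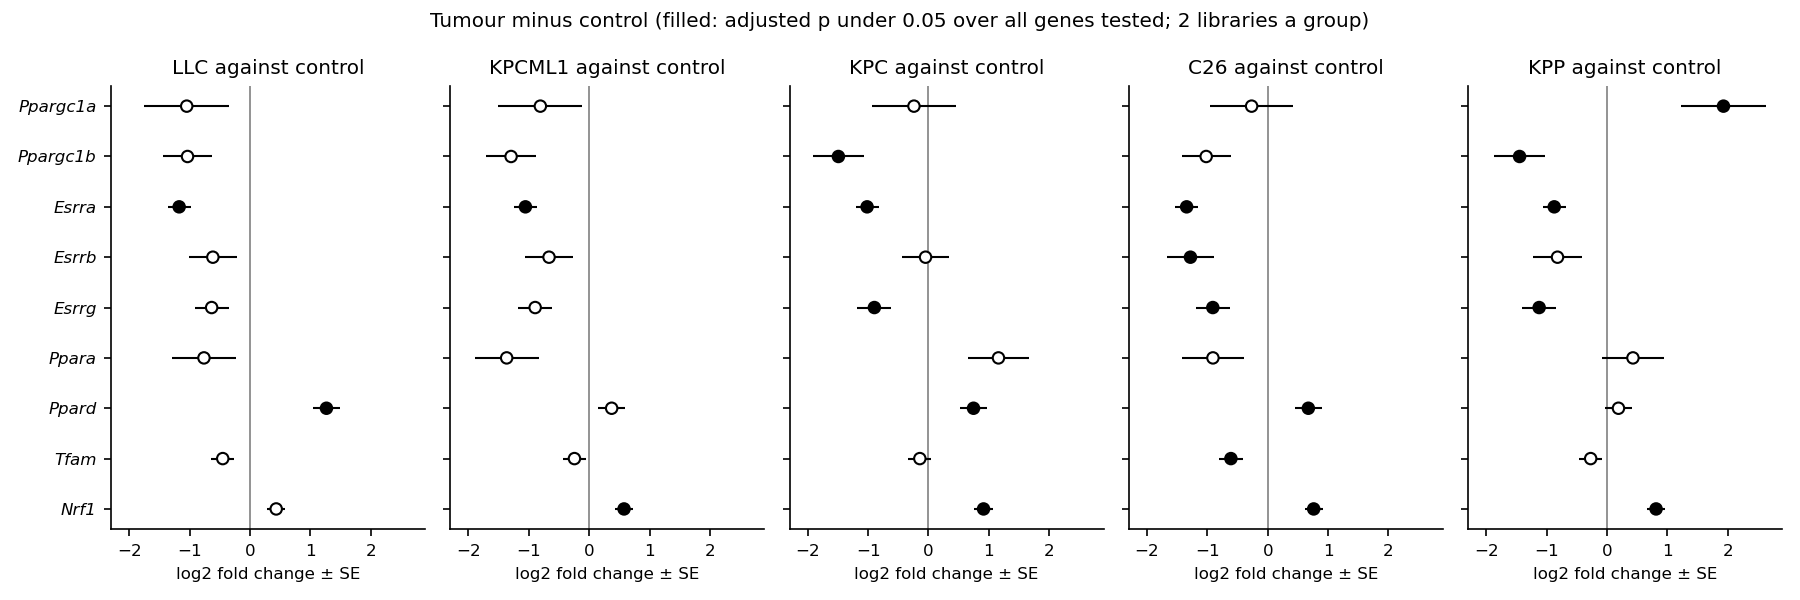
Log2 fold change of each gene, tumour minus control, with its standard error in the 5 comparisons (2 libraries a group). Filled points have an adjusted p under 0.05 over all genes tested; Esrra is lower in all 5 panels, Nrf1 is filled in 4 and Ppara in none.

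Ppard, the PPAR that is most abundant in muscle and responds to fatty acids, rose in 3 models. The LLC controls had 18.9 and 23.6 CPM and the LLC tumour muscles 44.9 and 57.4 CPM, 2.41-fold higher (log2 1.27 ± 0.22, adjusted p = 0.00261). The Matrigel controls had 26.5 and 26.2 CPM and the KPC muscles 45.4 and 43.1 CPM (0.75 ± 0.22, adjusted p = 0.0213). The C26 controls had 27.4 and 23.0 CPM and the tumour muscles 38.0 and 42.3 CPM (0.67 ± 0.22, adjusted p = 0.0426). The tumour libraries were above both controls in these 3 comparisons and in KPCML1 muscle, at 28.9 and 39.4 CPM, where the change of 0.37 ± 0.22 was not called (adjusted p = 0.325). The KPP groups overlapped, with 26.6 and 17.2 CPM in the controls and 27.3 and 22.9 CPM in the tumour muscles (0.19 ± 0.22, adjusted p = 0.522). The LLC call was lost without LLC control replicate 1 (1.10, adjusted p = 0.0629), in a range of 5.61e-07 to 0.0629 over all alternatives. The KPC call and the C26 call were lost without any 1 of their 4 libraries. Both were also lost with length-scaled counts (log2 0.50, adjusted p = 0.145, in KPC), and the C26 call with other size factors. They were kept in 5 of 10 and 4 of 10 alternatives, with log2 changes of 0.50 to 0.77 in KPC and 0.53 to 0.77 in C26. Over all alternatives the lowest adjusted p was 0.00657 in KPC and 0.0354 in C26.

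Ppara, which drives fatty acid oxidation genes in fasting, was called in 0 of the 5 comparisons by edgeR (unadjusted p under 0.05 in KPCML1, 0.0217, and KPC, 0.0385) and in 0 by DESeq2 (adjusted p = 0.0544 and 0.0588 there). With no filter on low counts edgeR called both (0.000323 and 0.00087), and without KPC tumour replicate 1 it called the KPC change (1.67, 0.0394). Its direction was not the same in the models. The Matrigel controls had 6.16 and 7.68 CPM, the KPCML1 muscles 3.36 and 1.95 CPM and the KPC muscles 9.81 and 21.1 CPM. Both KPCML1 libraries were thus below, and both KPC libraries above, the controls they share, with log2 changes of -1.37 ± 0.53 (adjusted p = 0.126) and 1.16 ± 0.51 (0.101). The log2 difference, KPCML1 minus KPC, was -2.53 ± 0.54 (adjusted p = 0.0204), and 5.99% of all genes were called in this test. Without KPC tumour replicate 2 the difference was -1.83 (adjusted p = 0.149), -2.99 without KPCML1 tumour replicate 1 (0.11), and -2.21 without KPCML1 tumour replicate 2 (0.128), in a range of 1.67e-13 to 0.149 over all alternatives. Pdk4, a PPAR target that restrains glucose oxidation, rose in both groups, from 174 ± 47.3 CPM (SD, n = 2) in the Matrigel controls to 2129 ± 290 CPM in KPCML1 (log2 3.61 ± 0.54, adjusted p = 0.0022) and 3336 ± 2394 CPM in KPC muscle (4.26 ± 0.56, 0.00027). Levels of Ppara in LLC were 5.90 and 4.96 CPM in controls and 2.78 and 3.604 CPM in tumour muscles, and in C26 8.65 and 7.90 CPM against 3.52 and 5.30 CPM. These groups were apart with lower tumour libraries, and the changes were not called (-0.76 ± 0.53, adjusted p = 0.385, and -0.91 ± 0.51, 0.233). They were called with each experiment fitted alone (0.0416 in LLC and 0.0463 in C26), and that in C26 with no filter (0.0167). The KPP controls, at 9.66 and 4.15 CPM, overlapped the KPP tumour muscles, at 4.38 and 14.3 CPM, the higher value again being replicate 2 (0.43 ± 0.51, adjusted p = 0.53, and -0.61 without that replicate).

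Nrf1, which encodes nuclear respiratory factor 1, was higher in the tumour muscles, where Esrra and Esrrg were lower. The Matrigel controls had 10.8 and 9.07 CPM, the KPCML1 muscles 14.3 and 15.3 CPM (log2 0.58 ± 0.15, adjusted p = 0.0337) and the KPC muscles 17.9 and 19.5 CPM (0.91 ± 0.15, adjusted p = 0.00103). The C26 controls had 9.84 and 9.84 CPM and the tumour muscles 15.8 and 17.6 CPM (0.76 ± 0.15, adjusted p = 0.00369). The KPP controls had 11.96 and 11.5 CPM and the tumour muscles 21.6 and 19.6 CPM (0.81 ± 0.15, adjusted p = 0.00119). Nrf1 was thus higher in 4 models, which held for 4.03% of all genes in at least 4 of the 5 comparisons. In LLC the controls had 10.6 and 9.81 CPM and both tumour muscles 13.8 CPM, and the change of 0.43 ± 0.15 was not called (adjusted p = 0.0755). All 10 tumour libraries, at 13.8 to 21.6 CPM, lay above all 8 controls, at 9.07 to 11.96 CPM, which 4.95% of all genes did. On the TPM scale the ranges were 7.68 to 12.7 TPM against 3.52 to 5.88 TPM. The KPCML1 call was kept in only 2 of 10 alternatives. It was lost without any 1 of its 4 libraries (log2 0.44 to 0.69). With all libraries kept, it was lost with length-scaled counts (adjusted p = 0.157) and the replicate block (0.112). It was also lost with each experiment alone (0.122) and with no filter (0.203). Its lowest adjusted p over all alternatives was 0.0144, with DESeq2. The KPC, C26 and KPP calls were kept in 10, 10 and 11 of as many alternatives, with adjusted p up to 0.0316, 0.05 and 0.0391.

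Tfam, the factor for mitochondrial DNA, was called in 1 comparison, C26, where it fell from 47.6 and 52.0 CPM to 34.3 and 31.0 CPM (log2 -0.61 ± 0.19, adjusted p = 0.0381). This call was lost without any 1 of the 4 C26 libraries (adjusted p from 0.0601 to 0.232) and with length-scaled counts (0.0968), and the lowest over all alternatives was 0.0124. The tumour libraries were below both controls in 4 comparisons and overlapped them in KPP. The LLC controls had 55.8 and 53.0 CPM against 43.1 and 36.5 CPM, the Matrigel controls 42.8 and 47.3 CPM against 37.3 and 38.7 CPM in KPCML1 and 41.8 and 39.7 CPM in KPC muscle. In LLC the change of -0.45 ± 0.19 had an adjusted p of 0.144 (unadjusted 0.035), and no difference in Tfam between models was called. The TPM group means of LLC were 32.1 ± 5.80 in controls and 32.2 ± 4.45 in tumour muscles (SD, n = 2), and those of C26 were 34.2 ± 7.68 and 32.2 ± 5.07, a scale without the TMM correction. With length-scaled counts, which keep that correction, the log2 changes were -0.48 in LLC and -0.59 in C26, close to those of the counts.

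Whether the 5 tumour effects of a gene differ was tested for each member jointly and in 10 pairs of models. In the joint test Ppara differed (adjusted p = 0.0401), where 8.3% of all genes did, and the other 8 members had adjusted p from 0.12 for Ppard to 0.91 for Ppargc1b. Over all genes, the pairwise tests called 0.18% between LLC and KPCML1, 1.85% between LLC and KPC, 0.466% between LLC and C26, 8.27% between LLC and KPP, 5.99% between KPCML1 and KPC, 0.0186% between KPCML1 and C26, 3.47% between KPCML1 and KPP, 0.87% between KPC and C26, 0.0373% between KPC and KPP and 1.08% between C26 and KPP. Of 90 pairwise tests of the members 2 passed, Ppara between KPCML1 and KPC, given above, and Ppard between LLC and KPP. The LLC effect on Ppard was higher than the KPP effect by 1.07 ± 0.31 on the log2 scale (adjusted p = 0.0488). That difference was kept in 3 of 13 alternatives, over which its adjusted p ran from 0.0149 to 0.245. For Esrra the difference between any pair of models was not called. Ppargc1a, with its single high library, had a joint adjusted p of 0.193, and LLC minus KPP was -2.98 ± 1.00 (adjusted p = 0.0764). KPC and KPCML1 share their controls, so their changes are not independent.

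Genes of the pathways around the members were taken from 5 lists, shown in the plot of pathway lists. Of 39 targets of ERR and PGC-1, 24 were lower and 0 higher in LLC muscle, 13 and 0 in KPCML1, 8 and 1 in KPC, 30 and 1 in C26 and 15 and 2 in KPP. The list's median log2 changes were -0.81, -0.58, -0.41, -0.83 and -0.33, beside medians of all genes of 0.00, 0.02, -0.02, 0.04 and -0.04. Lower genes were 6.23, 4.38, 13.7, 9.8 and 19.3% of all genes tested in the same comparisons. Idh3a, a subunit of isocitrate dehydrogenase, fell in all 5 (log2 -0.94 to -1.66), from 837 ± 77.8 to 265 ± 8.83 CPM in LLC (SD, n = 2). Sirt3, the mitochondrial deacetylase, fell in all 5, with a log2 change of -2.33 ± 0.22 in KPP, from 21.2 ± 1.99 to 4.24 ± 0.77 CPM. Ckmt2, the mitochondrial creatine kinase, and Vegfa, the angiogenic factor, were also lower in all 5, with log2 changes of -1.43 to -2.49 and of -0.69 to -1.37. The 0 higher genes in LLC and KPCML1 were also 0 at an unadjusted p under 0.05 and 0 with DESeq2. With 1 library left out, the count of lower genes was 6 to 15 in LLC (6 without LLC control replicate 1 or LLC tumour replicate 2), 1 to 9 in KPCML1 (1 without KPCML1 tumour replicate 2), 3 to 11 in KPC (3 without Matrigel replicate 2), 16 to 25 in C26 (16 without C26 tumour replicate 2) and 8 to 15 in KPP (8 without KPP control replicate 2, 9 without KPP tumour replicate 2). Tnni1 stands in this list and in that of slow myofibre markers.

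Of 36 PPAR targets tested (38 listed), 3 were higher and 2 lower in LLC, 5 and 0 in KPCML1, 14 and 0 in KPC, 9 and 1 in C26 and 5 and 3 in KPP, where higher genes were 7.39, 4.16, 15.3, 11.5 and 17.4% of all genes. The list's median log2 changes were -0.03, 0.17, 0.39, 0.17 and -0.02. The 0 lower genes in KPCML1 and KPC were 1 and 0 at an unadjusted p under 0.05 and 0 and 0 with DESeq2. The count of higher genes was 7 in KPC without KPC tumour replicate 2, 1 in KPCML1 without KPCML1 tumour replicate 2, 3 in C26 without C26 control replicate 2, and 0 in LLC without LLC control replicate 2. In KPP it was 7 without KPP tumour replicate 2, 2 without KPP control replicate 1 and 3 without KPP tumour replicate 1. Over all single libraries left out, the higher genes were 0 to 3, 1 to 6, 7 to 16, 3 to 6 and 2 to 7 in LLC, KPCML1, KPC, C26 and KPP, and the lower genes 0 to 1, 0 to 0, 0 to 0, 0 to 2 and 1 to 4. Acot1, an acyl-CoA thioesterase, rose in all 5, from 0.38 ± 0.057 to 12.7 ± 9.61 CPM in KPC (log2 5.04 ± 0.78, adjusted p = 0.00069). Plin5, a lipid droplet protein of oxidative tissue, rose in KPCML1, KPC and KPP muscle (log2 1.67, 2.85 and 1.70), and Plin2, a lipid droplet protein of many cells, passed the test in C26 (24.6 ± 0.56 to 75.5 ± 0.71 CPM, adjusted p = 0.00051). Pdk4 rose in KPCML1, KPC and C26 muscle and had 689 ± 454 CPM in KPP controls and 776 ± 357 CPM in KPP tumour muscles. Of the 10 adipocyte markers 8 were tested, and Ucp1 had 0 counts in the LLC, orthotopic and KPP libraries. Of the 8 tested, 4 in KPCML1 and 5 in KPC were called higher. The 10 summed to 272 to 415 CPM there, against 162 and 205 CPM in their controls. In C26, 0 were called higher and 4 lower, where 9.8% of all genes were lower. The sums were 357 and 166 CPM in the C26 tumour muscles and 227 and 260 CPM in their controls. In KPP, 1 was called higher and 6 lower, where 19.3% of all genes were lower. The sums were 167 to 218 CPM in the KPP tumour muscles against 337 to 348 CPM in controls. Their part in the PPAR target counts was not tested.

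**Figure D4:**
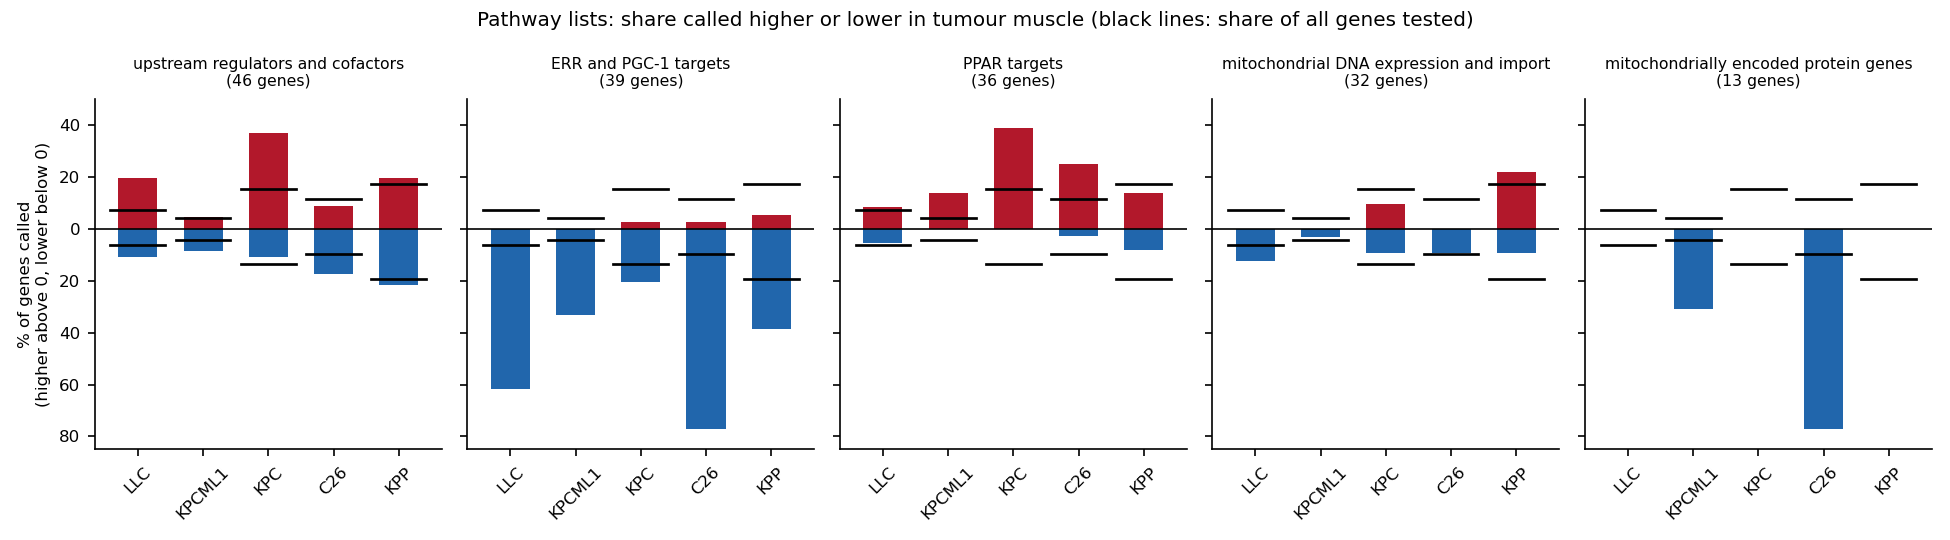
Share of genes called higher (red, above 0) and lower (blue, below 0) in each of 5 pathway lists and 5 comparisons, in percent of the genes tested. Black lines give the same share for all 16096 genes; the ERR and PGC-1 targets have 30 of 39 genes lower in C26 and 24 of 39 in LLC.

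Among 46 upstream regulators and cofactors, 9 were higher and 5 lower in LLC, 2 and 4 in KPCML1, 17 and 5 in KPC, 4 and 8 in C26 and 9 and 10 in KPP. Over all genes the shares called were 7.39% higher and 6.23% lower in LLC, 4.16 and 4.38% in KPCML1, 15.3 and 13.7% in KPC, 11.5 and 9.8% in C26 and 17.4 and 19.3% in KPP. The list's median log2 changes were 0.27, 0.02, 0.40, 0.07 and 0.23. The 17 higher genes in KPC were 3 without Matrigel replicate 2 and 19 without KPC tumour replicate 1, the 9 in LLC were 2 without LLC control replicate 1, LLC control replicate 2 or LLC tumour replicate 2, and the 9 in KPP were 5 without KPP control replicate 1, 6 without KPP control replicate 2 or KPP tumour replicate 1, and 9 without KPP tumour replicate 2. The 4 higher genes in C26 were 0 without C26 control replicate 2 or C26 tumour replicate 2, and the 2 higher and 4 lower genes in KPCML1 were 0 and 0 without KPCML1 tumour replicate 2. Over all single libraries left out, the higher genes were 2 to 6, 0 to 2, 3 to 19, 0 to 5 and 5 to 9, and the lower genes 2 to 3, 0 to 3, 3 to 5, 5 to 8 and 9 to 9, in LLC, KPCML1, KPC, C26 and KPP. Perm1, a muscle protein induced by PGC-1 and ERR, fell in all 5, from 312 ± 9.08 to 63.0 ± 14.3 CPM in LLC and from 258 ± 50.9 to 59.1 ± 18.2 CPM in KPP (SD, n = 2). Its log2 changes ran from -1.77 to -2.31. Sik1, a kinase induced by cyclic AMP that restrains CREB coactivators, rose in all 5, from 8.81 ± 2.57 to 170 ± 24.1 CPM in KPC (log2 4.27 ± 0.53, adjusted p = 0.00019). Prkag3, the AMP kinase γ3 subunit of fast fibres, fell in KPCML1, KPC, C26 and KPP (log2 -1.79, -2.08, -2.52 and -2.95) and had 124 ± 10.1 and 115 ± 13.03 CPM in LLC controls and tumour muscles. Prkag2, another γ subunit, fell in LLC and KPP (log2 -0.86 and -2.05).

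The list of 32 genes for mitochondrial DNA expression and import also held genes of other roles, such as Alas1 (below). Of the 32, 0 were higher and 4 lower in LLC, 0 and 1 in KPCML1, 3 and 3 in KPC, 0 and 3 in C26 and 7 and 3 in KPP. The shares of all genes are those given for the upstream regulators (15.3% higher and 13.7% lower in KPC, 17.4 and 19.3% in KPP). The 0 higher genes in LLC, KPCML1 and C26 were 2 in each at an unadjusted p under 0.05 and 0 with DESeq2, and the 7 in KPP were 11 without KPP tumour replicate 2 and 3 without KPP control replicate 1 or KPP tumour replicate 1. The 4 lower genes in LLC were 1 to 2 without any 1 of its libraries, and the 3 higher and 3 lower genes in KPC were 0 and 0 without Matrigel replicate 2. Alas1, the first enzyme of haem synthesis and a target of nuclear respiratory factor 1, fell in all 5 (log2 -1.07 to -1.70). It was the 1 lower gene in KPCML1 and is among the lower genes of each other comparison. The import receptors Tomm20 and Tomm40 rose in KPP (1.03 ± 0.20 and 0.95 ± 0.18). In KPC they had 0.54 ± 0.20 (adjusted p = 0.0584) and 0.39 ± 0.17 (0.106). Timm44, which tethers the import motor to the inner membrane, fell in LLC and C26 (-0.69 ± 0.14 and -0.61 ± 0.14). Of the 13 mitochondrially encoded protein genes, 4 were lower in KPCML1 and 10 in C26, and 0 in LLC, KPC and KPP by edgeR, where 6, 0 and 9 had an unadjusted p under 0.05 and DESeq2 called 4, 0 and 5. Their median log2 changes were -0.82, -1.08, -0.31, -1.26 and -0.85 in LLC, KPCML1, KPC, C26 and KPP. The 4 calls in KPCML1 were 0 without any 1 of its 4 libraries, and the 10 in C26 were 0 without C26 control replicate 2 or C26 tumour replicate 2. mt-Nd1, a complex I subunit, had a log2 change of -1.38 ± 0.35 in C26 (adjusted p = 0.013) and -0.99 ± 0.35 in LLC (0.075).

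The genes most like each member were ranked by the correlation of log2 CPM over the 18 libraries, which share the 8 controls and the tumour effect, and are given as a description. Esrra was nearest to Perm1 (Pearson r = 0.966), Mief2, a factor of mitochondrial fission (0.965), and Pptc7, a mitochondrial phosphatase (0.961). Nrf1 was nearest to Map1lc3b, the autophagosome protein LC3B (0.970), Ctps2 (0.970) and Eif4ebp1, the translation repressor 4E-BP1 (0.965). Tfam was nearest to the respiratory chain genes Ndufb2 (0.951) and Cox6c (0.932) and to Cbr4 (0.939). For Esrrg they were Ykt6 (0.904), Pmpcb (0.895) and Cyb5b (0.893), for Esrrb Ciapin1 (0.877), Slc38a10 (0.852) and Klhl34 (0.845), and for Ppargc1b Fam78a (0.951), Btbd6 (0.950) and P2ry1 (0.934). Ppard was nearest to Zfp865 (0.922), Cul9 (0.921) and Scrib (0.919), and Ppara to Inha (0.866), Mtss1 (0.830) and Zfp407 (0.825). For Ppargc1a the nearest were Tbc1d8b (0.808), Osbpl2 (0.783) and Crem, a cyclic AMP response factor (0.773), which were 0.685, 0.379 and 0.515 without KPP tumour replicate 2. Crem had 16.6 CPM in that library and at most 9.89 CPM in the other 17, and Osbpl2 had 48.3 CPM against at most 29.0 CPM.

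The authors' deposited tables for LLC, KPC, C26 and KPP, made with DESeq2, give values of the members that can be set beside these. In the authors' deposited tables Esrra is lower in each of the 4, with log2 fold changes of -1.25 ± 0.16 (LLC), -1.02 ± 0.29 (KPC), -1.31 ± 0.21 (C26) and -0.78 ± 0.29 (KPP) and adjusted p from 2.16e-13 to 0.0325. Nrf1 in the authors' deposited tables is higher in each of the 4, with 0.73 ± 0.26 (adjusted p = 0.0258), 0.94 ± 0.34 (0.0305), 1.07 ± 0.27 (0.000813) and 1.21 ± 0.33 (0.00226). Esrrg is also lower at adjusted p of 0.0105 to 0.0474 in the authors' deposited tables of all 4 models. Ppargc1a in the authors' deposited KPP table has 2.66 ± 1.69 with an adjusted p of 0.272, and Ppara is under the threshold in 0 of the 4. Ppargc1b in the authors' deposited tables is lower in LLC (-1.32 ± 0.33, adjusted p = 0.000715) and is not under the threshold in KPC (-1.22 ± 0.49, 0.0564) or KPP (-0.98 ± 0.59, 0.239). Ppard in the authors' deposited tables is higher in LLC (1.303 ± 0.20, adjusted p = 3.56e-09) and is not under the threshold in KPC (0.51 ± 0.29, 0.204) or C26 (0.55 ± 0.22, 0.0596).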

How the data were processed

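The data are 18 RNA-seq libraries of TA muscle, 2 in each of 9 groups, assigned from the labels. Per the labels' protocols, poly(A) RNA went into strand-preserving libraries read from both ends, and per the submitters' processing notes the authors used bcl2fastq (2.20), Salmon, DESeq2 and build mm10. Not given in the sources used here: Salmon's release and strand option, and the transcript set. The library files deposited by the authors hold estimated counts per transcript, which are not normalised, and TPM, which Salmon scaled by effective length within the library. The tables deposited by the authors hold log2 fold changes with standard errors, p-values and adjusted p-values from DESeq2, and 1 table, of a cell number that no sample is labelled with, was not used here.

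Of 140825 transcripts in each file 139958 matched the GENCODE M21 annotation of mm10; the other 867 held 0.412 to 0.685% of the fragments. The estimated counts of a gene's transcripts were added up, then rounded. Reads shared by overlapping or similar transcripts were divided by Salmon, so the values of single transcripts carry that uncertainty. filterByExpr of edgeR (4.0.16, in R 4.3.3) kept 16096 genes, and 1 model of 9 groups was fitted with TMM scaling and the quasi-likelihood method (9 residual and 5.05 prior degrees of freedom, common dispersion 0.054). P values were adjusted by Benjamini and Hochberg over all genes tested. The standard error is the log2 change over the square root of F. Transcripts whose starts lay within 500 bases were joined into a start region, and the upstream share was tested by an exact permutation test of tumour labels within the 4 experiments. Python 3.11.15, pandas 2.3.3, scipy 1.17.1 and matplotlib 3.10.9 were used. Sequences were read from the GENCODE transcripts and RefSeq promoters.

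The members and lists were chosen with earlier results of these data known. Named were all members, the 4 genes of smallest p of each list, the 3 genes most like each member with a mean of at least 1 CPM, and Ppargc1a transcripts of at least 5% of the gene. The alternatives were other size factors, no filter, length-scaled counts (TPM times effective length), a replicate block, each experiment alone, DESeq2 (1.42.0), leaving out each library, TPM shares, starts joined within 5000 bases and coding transcripts only. In data simulated for LLC with 16096 genes, 25 of 100 genes changed 2-fold and 62 of 100 changed 4-fold were called, and 2 unchanged genes. For the usage of minor transcripts, 3 of 100 changed 4-fold (38142 transcripts) and 44 of 100 changed 16-fold (38122 transcripts) were called. Beside them 18 and 28 unchanged transcripts were called, so a lack of usage calls has little power behind it. In the 4-fold run the false calls outnumbered the true ones, and the LLC data had 26 usage calls. The shares of all transcripts called may thus hold many false ones.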

Additional observations from a re-analysis of the deposited data

Results flagged for a closer look

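The size of the tumour effect on Ppara differed among the 5 models in the joint test (edgeR's quasi-likelihood test, adjusted p = 0.0401, with 8.3% of all genes under 0.05). Between KPCML1 and KPC muscle, which share their controls, the difference in Ppara had an adjusted p of 0.0204, with both KPCML1 libraries below and both KPC libraries above the 2 controls. It was kept in 8 of 12 alternatives. The tumour effect on Ppard was larger in LLC than in KPP (adjusted p = 0.0488), higher in 2 of 2 LLC libraries, while the KPP groups overlapped. That difference was kept in only 3 of 13 alternatives, and Ppard was not called in the joint test (adjusted p = 0.12). No group has enough libraries for a test of single outlying samples.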

How the results depend on the processing

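With 2 libraries a group, the count of members called depended on the fit more than the direction of the members did. Of 484 values of single members under an alternative, 386 kept their direction and their side of the threshold, 67 lost the call, 20 gained one and 11 changed direction. The count of 2 members called in LLC was 4 with no filter on low counts and 7 with each experiment fitted alone. The count of 2 in KPCML1 was 5 with no filter, 4 with DESeq2, and 1 with length-scaled counts, with the replicate block and with each experiment alone. The count of 5 in KPC was 2 with length-scaled counts. The 1 member that differed among models became 3 with no filter, and 0 with length-scaled counts and with the replicate block. With 1 library left out, whose partner is then assumed to vary like the other groups, the counts were 1 to 2 in LLC, 0 to 1 in KPCML1, 2 to 4 in KPC, 2 to 3 in C26, 2 to 4 in KPP and 0 to 2 among models, usage calls stayed at 0 to 0, and the difference in the upstream share was 0.258 to 2.51 percentage points. The counts of the pathway lists under these fits, an alternative chosen after seeing the data, are given with the lists, for the libraries that move them most. Apart from the fewer libraries, the cause was not tested.

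Changed directions, in members not called but for the first, were Ppargc1a in KPP (-0.72 without KPP tumour replicate 2, 2.82 without KPP tumour replicate 1) and in KPC (0.24 without KPC tumour replicate 2, -1.04 without KPC tumour replicate 1), Esrrb in KPCML1 (0.13 without Matrigel replicate 2, -1.20 without Matrigel replicate 1) and in KPC (0.027 with the replicate block, 0.72 without Matrigel replicate 2, 0.10 without KPC tumour replicate 2), Ppara in KPP (-0.04 without KPP control replicate 2, -0.61 without KPP tumour replicate 2), Ppard in KPP (-0.061 without KPP control replicate 2, 0.54 without KPP control replicate 1) and Tfam in KPP (0.031 and 0.043 without those 2 libraries, -0.55 without KPP tumour replicate 1). The calls of Esrra in LLC, KPC, C26 and KPP and of Nrf1 in KPC, C26 and KPP were kept under every alternative run. Replicate numbers do not pair the samples by the labels, and deviations of equal numbers correlated at -0.172 to 0.093. With the replicate number as a block within each experiment the counts called were 2, 1, 5, 4 and 4 in LLC, KPCML1, KPC, C26 and KPP and 0 among models, and the difference in the upstream share had an exact permutation p of 0.368 with labels permuted within pairs. In the KPP experiment, where the correlation was lowest, a block with crossed numbers, chosen after seeing the data, also gave 4 calls. Without Ppargc1a-202, likewise chosen after seeing the data, the difference in the upstream share was 1.17 points (exact permutation p = 0.25).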
